A study of Rattus norvegicus with 12 samples.

Results

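CC chemokines are small secreted proteins, named for a pair of adjacent cysteines, that draw leukocytes along a gradient through G protein-coupled CC chemokine receptors. In injured brain they are made by glia, endothelium and entering myeloid cells, and Ccl2 acting on Ccr2 is the best known signal for the entry of blood monocytes. The genes examined were Ccl2, Ccl3, Ccl4, Ccl5, Ccl6, Ccl7 and Ccl20, a family chosen by its log2 differences between MCAO and Sham in these same arrays. Each was matched by the array annotation, which assigned exactly 1 probe set to each, so the 7 members were 7 of 20826 probe sets with a single gene. Because the choice used the comparison of MCAO with Sham, the members' differences between the groups are described here without a test.

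Left brain hemispheres of 12 male Sprague-Dawley rats, 8 weeks old, were profiled for mRNA with 1 oligonucleotide array per animal. The MCAO group held 7 animals with occlusion and reperfusion of the middle cerebral artery, which models ischemic stroke, and the Sham group held 5 sham-operated animals. The hemispheres were collected 24 h after reperfusion, and the labels name neither the occluded side nor the duration of the occlusion. Both groups were operated animals of 1 strain with no other treatment in the labels.

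Medians of the arrays were 7.23 to 7.27 (log2 signal), and the number of arrays limits the precision. On the MCAO 6 array, control probe sets were displaced in the deposited table: of 40 that were near-constant on the other 11 arrays, 0 had the same value (within 0.05) in place and 34 had it 12 positions away. Its near-constant gene probe sets were not displaced (0 off by over 0.05). Neuron, astrocyte and oligodendrocyte markers were present: 12 of 12, 11 of 12 and 11 of 12 listed genes had a probe set on the array, and all of these passed the filter on low values. Of the probe sets with 1 gene, 58.9% were near-constant, with an SD under 0.01 over the 12 arrays. Their means spanned 5.38 to 13.74, so a near-constant value was not always a low one. No change can be read from such a probe set, and its cause in the deposited values was not tested. In bulk tissue, fewer cells of a type and less RNA per cell cannot be told apart, and nor can more cells and more RNA per cell.

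The monocyte chemokines had the widest separation between the groups. Ccl2 (Entrez Gene 24770) had a log2 signal of 8.58 in the lowest MCAO rat, 11.60 at the median and 11.98 in the highest, against 6.09, 6.16, 6.18, 6.14 and 6.05 in the 5 Sham rats. The lowest MCAO rat lay 2.41 log2 units above the highest Sham rat, and the Sham values were nearly alike. The means were 11.03 ± 1.25 in MCAO (SD, n = 7) and 6.12 ± 0.05 in Sham (SD, n = 5), a 29.9-fold difference of signal. All Sham values of Ccl2, Ccl7, Ccl20 and Ccl6 lay under the limit on low values used here (6.61), and no detection calls were used, so every fold of these genes over Sham is a ratio of signals and may understate the ratio of transcripts. Ccl7, encoded next to Ccl2 and able to bind Ccr2 as well as other CC receptors, ranged over 7.30, 9.65 and 10.54 (lowest, median and highest) in MCAO, against 6.18, 6.10, 6.05, 6.15 and 6.20 in Sham. The groups did not overlap, and the difference of the means was 10.3-fold, with 9.50 ± 1.15 in MCAO (SD, n = 7) and 6.14 ± 0.06 in Sham (SD, n = 5).

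Ccl20, the ligand of Ccr6 that attracts dendritic cells and some T and B cells, was higher in every MCAO rat too. Its log2 signal was 6.64, 8.92 and 9.62 (lowest, median and highest) in MCAO, against 6.22, 6.16, 6.10, 6.14 and 6.18 in Sham. The lowest MCAO rat was only 0.42 log2 units above the highest Sham rat, so the group difference of 4.95-fold described some rats much better than others. The means were 8.47 ± 1.08 in MCAO (SD, n = 7) and 6.16 ± 0.04 in Sham (SD, n = 5).

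**Figure D1:**
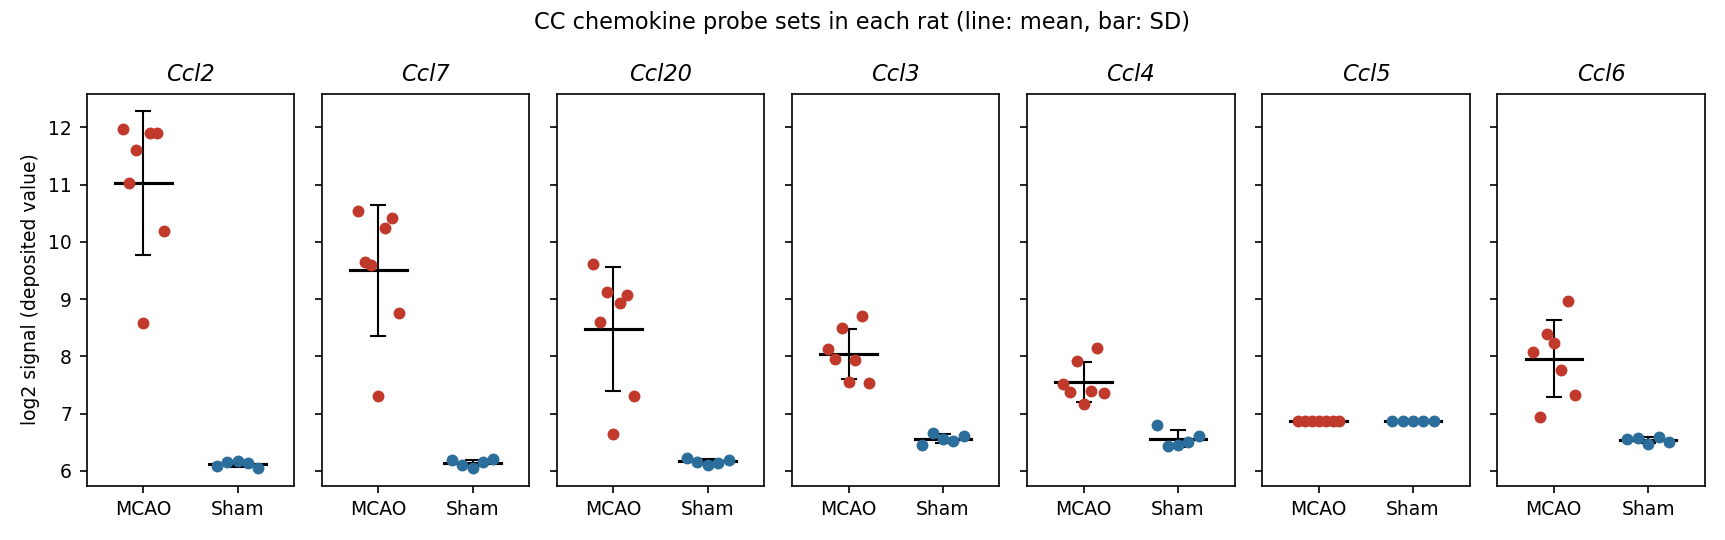
Log2 signal (deposited value, vertical axis) of the 7 CC chemokine probe sets in each of 7 MCAO rats (red, left) and 5 Sham rats (blue, right), with the group mean as a line and the SD as a bar. Ccl2, Ccl7, Ccl20, Ccl3, Ccl4 and Ccl6 did not overlap between the groups, and Ccl5 stood at 6.87 in all 12 rats.

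The macrophage inflammatory proteins Ccl3 and Ccl4, which attract monocytes and other leukocytes, had smaller differences of signal between the groups and also among MCAO rats. Ccl3 had log2 signals of 7.54, 7.95 and 8.70 (lowest, median and highest) in MCAO, against 6.44, 6.66, 6.56, 6.53 and 6.60 in Sham, a 2.80-fold difference of the means. Ccl4 had 7.17, 7.39 and 8.15 in MCAO, against 6.81, 6.44, 6.45, 6.51 and 6.61 in Sham, a 1.99-fold difference. Only 1 Sham value of Ccl3 and 2 of Ccl4 lay above the limit on low values, so these folds too may understate the ratio of transcripts. Neither gene overlapped between the groups, and the Ccl4 value of Sham 1 came nearest to the MCAO range. Means were 8.04 ± 0.44 in MCAO (SD, n = 7) and 6.56 ± 0.08 in Sham (SD, n = 5) for Ccl3. For Ccl4 they were 7.55 ± 0.35 in MCAO (SD, n = 7) and 6.56 ± 0.15 in Sham (SD, n = 5).

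Ccl6, a chemokine known from rodents that acts on Ccr1, had log2 signals of 6.95, 8.08 and 8.96 (lowest, median and highest) in MCAO, against 6.55, 6.57, 6.47, 6.59 and 6.50 in Sham. The groups did not overlap, with means of 7.96 ± 0.68 in MCAO (SD, n = 7) and 6.54 ± 0.05 in Sham (SD, n = 5), a 2.67-fold difference. Ccl5 (RANTES, a chemokine of T cells and monocytes) was the exception among the members. Its probe set was near-constant at 6.87 in all 7 MCAO and all 5 Sham rats, so these data hold no readable difference for it.

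In all, 6 of the 7 members had every MCAO value above every Sham value, where 17.9% of the 6339 tested genes that varied between arrays did so. The median log2 difference of these 6 members was 1.90, against 0.03 over all varying tested genes. Since this comparison chose the members, nothing is read from that contrast. All 7 members passed the filter on low values (above 6.61 in at least 5 arrays). Ccl2, Ccl7, Ccl20 and Ccl6 passed through MCAO arrays alone, with 0 of 5 Sham arrays above the limit, while Ccl3 had 1 and Ccl4 had 2 Sham arrays above it. The levels of different probe sets are not compared.

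The MCAO rats differed widely from each other in the first 3 genes. Ccl2 in MCAO 1 was 57.8-fold above the Sham mean, in MCAO 5 54.8-fold and in MCAO 6 54.5-fold. It was 44.6-fold above in MCAO 3, 30.0-fold in MCAO 2, 16.8-fold in MCAO 7 and 5.50-fold in MCAO 4. The highest rat thus had 10.5 times the signal of the lowest for Ccl2, 9.46 times for Ccl7 and 7.85 times for Ccl20. MCAO 1 was highest and MCAO 4 lowest in all 3 genes, with MCAO 7 next to lowest.

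At the low end Ccl3 and Ccl4 were like these 3, with MCAO 4 and MCAO 7 as their lowest rats, but the top differed for Ccl3, Ccl4 and Ccl6. MCAO 6 was highest in all 3, at 4.41-fold, 3.01-fold and 5.35-fold above the Sham mean, and without it the group differences were 2.59-fold for Ccl3, 1.85-fold for Ccl4 and 2.38-fold for Ccl6. For Ccl6 the lowest rat was MCAO 2, at 1.33-fold, while MCAO 4, lowest for Ccl2, reached 3.22-fold. The highest rat had 2.23 times the signal of the lowest for Ccl3, 1.98 times for Ccl4 and 4.03 times for Ccl6. The SD among MCAO rats exceeded that among Sham rats for each member, by a ratio of 23.3 for Ccl2, 18.9 for Ccl7, 24.7 for Ccl20, 13.2 for Ccl6, 5.41 for Ccl3 and 2.30 for Ccl4. The median of that ratio over varying tested genes was 1.96. All Sham values of Ccl2, Ccl7, Ccl20 and Ccl6 lay under the limit on low values, where the spread may be compressed, so their ratios may be inflated.

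**Figure D2:**
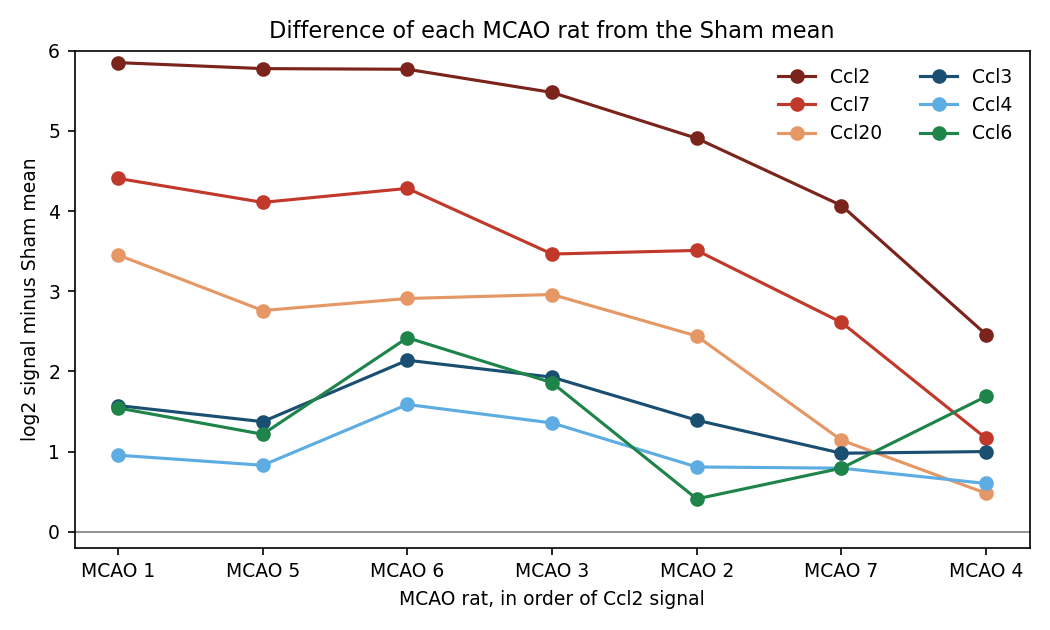
Log2 signal minus the Sham mean (vertical axis) of 6 CC chemokines in each of the 7 MCAO rats, ordered along the horizontal axis by their Ccl2 signal. Ccl2, Ccl7, Ccl20, Ccl3 and Ccl4 all have their lowest values in MCAO 7 and MCAO 4, Ccl3, Ccl4 and Ccl6 peak in MCAO 6, and Ccl6 is higher in MCAO 4 than in MCAO 2.

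Variation within the MCAO group was not the contrast that chose the members, and it was tested. All 6 varying members had higher signal in MCAO, and how far genes chosen that way correlate with each other was not tested. Over the 7 MCAO rats, 15 pairs among the 6 varying members were correlated, and 4 pairs passed an exact two-sided permutation test with Benjamini-Hochberg adjustment over the 15. Ccl2 and Ccl7 had r = 0.98 (rho = 0.93, exact permutation p = 0.00159, adjusted p = 0.00992). Ccl2 and Ccl20 had r = 0.96 (rho = 0.86, exact permutation p = 0.00198, adjusted p = 0.00992), and Ccl7 and Ccl20 had r = 0.95 (rho = 0.79, exact permutation p = 0.00298, adjusted p = 0.0112). The fourth pair was Ccl3 and Ccl4, with r = 0.95 (rho = 0.93, exact permutation p = 0.000794, adjusted p = 0.00992).

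These pairs linked Ccl2, Ccl7 and Ccl20 on one side and Ccl3 and Ccl4 on the other. No pair passed when ranks were used, although Ccl2 with Ccl7 and Ccl3 with Ccl4 each had an exact permutation p of 0.00675 for rho (adjusted p = 0.0506). Without the pair of rats farthest from the median of the first gene, r over 5 rats was 0.82 for Ccl2 and Ccl7, 0.75 for Ccl2 and Ccl20, 0.85 for Ccl7 and Ccl20, and 0.80 for Ccl3 and Ccl4. With single rats left out, r was 0.943 to 0.998 for Ccl2 and Ccl7, 0.94 to 0.98 for Ccl2 and Ccl20, 0.89 to 0.97 for Ccl7 and Ccl20, and 0.91 to 0.99 for Ccl3 and Ccl4. The exact test is coarser with 6 rats: without MCAO 4 the pairs Ccl3 with Ccl4 and Ccl4 with Ccl6 passed and none among Ccl2, Ccl7 and Ccl20, and without MCAO 7 only Ccl3 with Ccl4 passed. Without MCAO 6 the same 4 pairs passed, each at an adjusted p of 0.0208 (exact permutation test, 6 rats). Without MCAO 4 the Ccl2 and Ccl7 pair kept r = 0.94 with an adjusted p of 0.0521 (exact permutation test, 6 rats).

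No pair across the 2 sides passed, and none with Ccl6, although by ranks some were as close as pairs within a side. Ccl20 with Ccl4 had rho = 0.86 (r = 0.61, exact permutation p = 0.106, adjusted p = 0.146) and Ccl20 with Ccl3 had rho = 0.79 (r = 0.78, exact permutation p = 0.0508, adjusted p = 0.142). Ccl2 with Ccl3 had r = 0.74 (rho = 0.57, exact permutation p = 0.0569, adjusted p = 0.142), and Ccl2 with Ccl6 had r = 0.18 (rho = 0.18, exact permutation p = 0.699, adjusted p = 0.749). Without MCAO 4, r of Ccl6 was 0.66 with Ccl2, 0.56 with Ccl7 and 0.56 with Ccl20, and none of these pairs passed. Ccl6 with Ccl3 had r = 0.66 (rho = 0.64, exact permutation p = 0.104, adjusted p = 0.146), and r fell to -0.01 without MCAO 3 and MCAO 6. Ccl6 with Ccl4 had r = 0.70 (rho = 0.61, exact permutation p = 0.0887, adjusted p = 0.146), which passed without MCAO 4 at r = 0.91 (adjusted p = 0.0208) and was r = 0.41 without MCAO 6. Whether one correlation differs from another was not tested.

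**Figure D3:**
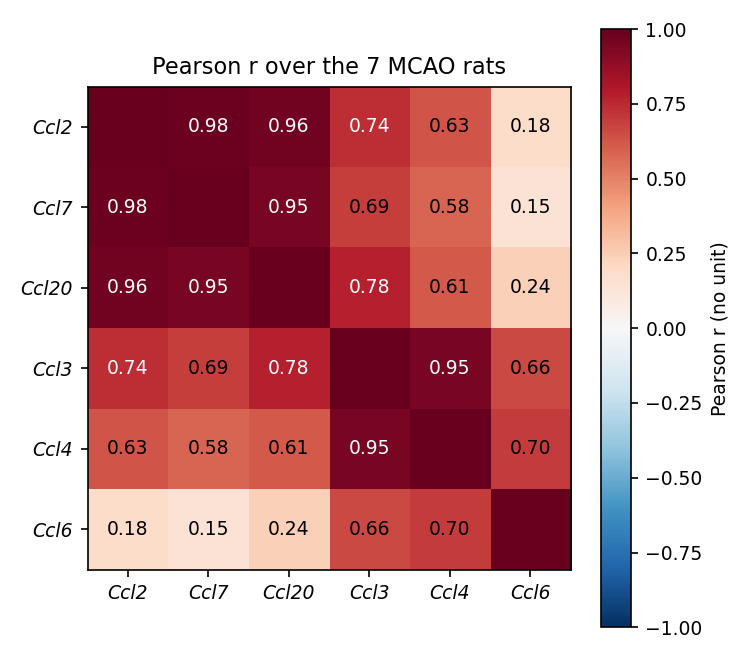
Pearson r over the 7 MCAO rats for each pair of the 6 varying CC chemokines, with genes on both axes and r given by colour and number. Ccl2, Ccl7 and Ccl20 form a block of 0.95 to 0.98, Ccl3 and Ccl4 have 0.95, and Ccl6 with Ccl2 has 0.18.

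A small share of other genes had as high an r with these members over the MCAO rats. Of 5334 other genes with an SD of at least 0.1 among MCAO rats, 0.262% had an r with Ccl2 at least as high as that of Ccl7, and 1.52% at least as high as that of Ccl20. For Ccl3, 0.394% had an r at least as high as that of Ccl4. These shares are over genes higher or lower in MCAO and are not matched to the rise of the members. The genes most like Ccl2 over the 7 MCAO rats, members left out, had r of 0.992 to 0.995. They were Pdpn, the membrane glycoprotein podoplanin, the RNA helicase gene Ddx21, the p53-induced nuclease gene Aen, the glutathione peroxidase gene Gpx2 and the translation termination factor gene Gspt1. The gene most like Ccl3 was Il1b, the inflammatory cytokine interleukin-1 beta (r = 0.99). Phf23, the RNA methyltransferase gene Nsun2, Cmtm6 and Osbpl9 followed, each with r = 0.97. These likenesses are descriptions over 7 rats, picked as the highest of 5294 genes.

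In the rat assembly GRCr8 of RefSeq, 6 of the 7 genes lie on chromosome 10 and Ccl20 lies on chromosome 9. Ccl2 and Ccl7 are neighbours with no protein-coding gene between them, and so are Ccl6, Ccl3 and Ccl4, in that order. The pairs that passed thus included neighbours (Ccl2 with Ccl7, and Ccl3 with Ccl4) and a gene on another chromosome (Ccl20). The RefSeq promoter table matched 3 of the 7 members, and the 250 bases before the annotated start are shown for these. Of these, Ccl7 with Ccl20 passed over all the MCAO rats, and no pair with Ccl6 did. Capitals mark matches to the searched motifs on either strand.
Ccl7: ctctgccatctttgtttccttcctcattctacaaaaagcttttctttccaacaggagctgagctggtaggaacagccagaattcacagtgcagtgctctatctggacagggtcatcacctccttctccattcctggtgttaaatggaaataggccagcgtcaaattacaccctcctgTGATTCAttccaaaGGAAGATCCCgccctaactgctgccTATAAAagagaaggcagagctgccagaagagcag
Ccl20: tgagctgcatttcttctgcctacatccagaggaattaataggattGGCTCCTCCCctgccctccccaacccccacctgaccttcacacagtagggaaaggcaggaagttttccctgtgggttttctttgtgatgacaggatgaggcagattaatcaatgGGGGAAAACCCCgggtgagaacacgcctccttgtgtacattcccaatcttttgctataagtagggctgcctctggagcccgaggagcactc
Ccl6: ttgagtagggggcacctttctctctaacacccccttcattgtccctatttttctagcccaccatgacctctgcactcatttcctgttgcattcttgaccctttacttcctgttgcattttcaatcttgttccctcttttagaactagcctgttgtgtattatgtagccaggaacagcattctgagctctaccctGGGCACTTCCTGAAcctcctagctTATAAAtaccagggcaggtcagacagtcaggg
The windows are chr10:67513845-67514094 (plus strand) for Ccl7, chr9:91836909-91837158 (plus strand) for Ccl20 and chr10:68883367-68883616 (minus strand) for Ccl6, each written in the direction of the gene.

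The NF-kB motif was searched as GGG, any 5 bases and CC, and all 3 windows held a match. Ccl7 had GGAAGATCCC starting 59 bases before the start, Ccl6 had GGGCACTTCC at 56 bases, and Ccl20 had 3 overlapping matches at 89 to 91 bases and 1 more, GGCTCCTCCC, at 205. The AP-1 motif TGANTCA matched only in Ccl7, 73 bases before the start. The C/EBP motif TTNNGNAA matched only in Ccl6, overlapping its NF-kB match, and the TATA box TATAAA matched in Ccl7 and Ccl6. No window held the STAT motif TTCNNNGAA. Of 33469 RefSeq promoter windows of the same length, 42.3% held the NF-kB motif, 6.34% the AP-1 motif, 37.2% the C/EBP motif, 7.67% the STAT motif and 12.9% the TATA box. A match is a string of letters and was not tested as a binding site.

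Among the receptors, Ccr1, which binds Ccl3, Ccl5, Ccl7 and, in rodents, Ccl6, was higher in MCAO. Its log2 signal was 6.63, 7.17 and 7.72 (lowest, median and highest) in MCAO, against 6.19, 6.13, 6.19, 6.14 and 6.34 in Sham. The groups did not overlap, and the difference was 0.92 ± 0.18 (log2, SE; limma adjusted p = 0.00341), higher in 7 of 7 MCAO rats. Like 4 of the chemokines, it passed the filter through MCAO arrays alone, so the count of 1 is not read as support. With no filter its adjusted p was 0.00385 (limma), and it is not tested under a filter at the 50th percentile. MCAO 6, highest for Ccl3, Ccl4 and Ccl6, was highest for Ccr1 as well, and r over the 7 MCAO rats was 0.85 with Ccl3 and 0.58 with Ccl2, at ranks 202 and 1420 of 5294 genes.

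For the other receptors no change could be read. Of 11 listed CC receptors and receptor-like genes 7 were on the array, and 6 of these were near-constant: Ccr2, Ccr3, Ccr4, Ccr6, Ccr10 and the receptor-like Ccrl2. Ccr2, the receptor of Ccl2 and Ccl7, had 6.23 in all MCAO and all Sham rats, and Ccr6, the receptor of Ccl20, had 6.74 throughout. In the limma fit 1 of the 1 varying receptor rose and 0 fell, where 35.2% of varying tested genes were called higher and 34.2% lower. The other listed receptors were not analysed here.

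Atypical receptors, which bind chemokines without G protein signalling, went both ways. Ackr2, a scavenger of inflammatory CC chemokines, was lower by its varying probe set, with 6.14, 6.35 and 7.01 (lowest, median and highest) in MCAO, against 7.05, 6.84, 6.95, 6.95 and 7.11 in Sham. MCAO 4, the rat with the lowest Ccl2, was the one inside the Sham range, and the difference was -0.54 ± 0.13 (log2, SE; limma adjusted p = 0.00918). Its other probe set was near-constant at 6.54 in both groups, so the 2 probe sets do not show the same change. Ackr3, best known as a scavenger of Cxcl12, had 7.90, 8.20 and 8.41 in MCAO, against 7.70, 7.65, 7.79, 7.92 and 7.83 in Sham, a difference of 0.39 ± 0.09 (limma adjusted p = 0.00788). With the replicate number as a block neither Ackr2 nor Ackr3 passed (limma adjusted p = 0.0651 and 0.0782). Ackr1, a chemokine binder of venules and red cells, differed by 0.27 ± 0.12 and did not pass (limma adjusted p = 0.0808), but did without MCAO 4, at 0.32 (adjusted p = 0.0337).

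**Figure D4:**
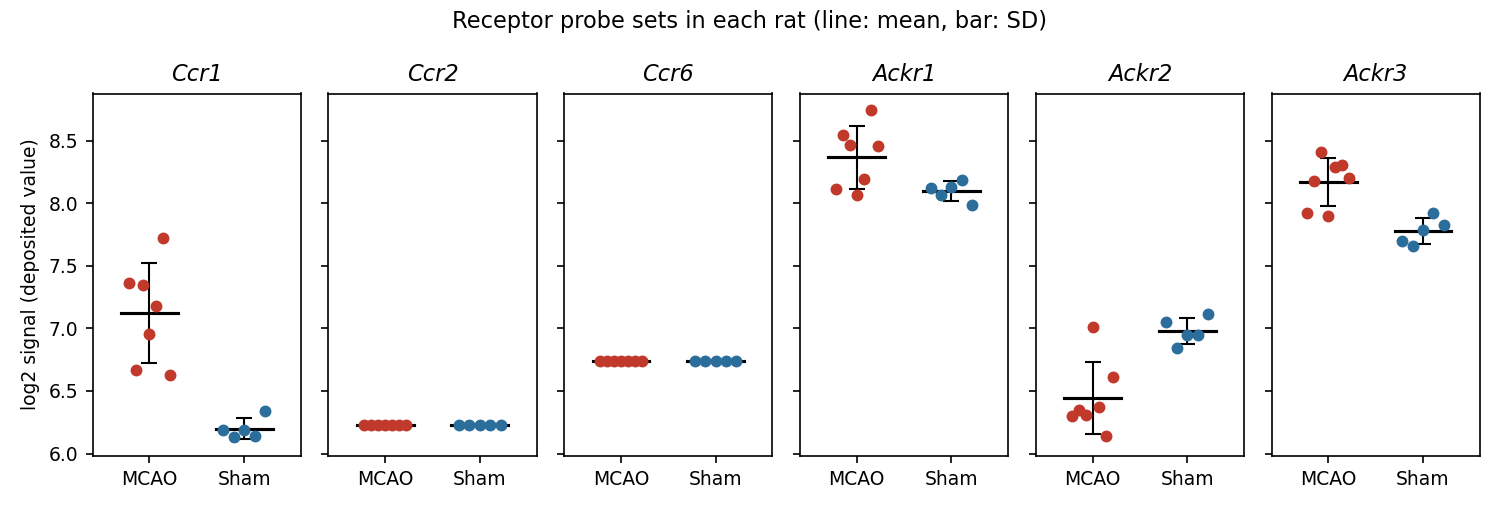
Log2 signal (deposited value, vertical axis) of 6 receptor probe sets in each of 7 MCAO rats (red, left) and 5 Sham rats (blue, right), with the group mean as a line and the SD as a bar. Ccr1 did not overlap between the groups, Ccr2 and Ccr6 stood at 6.23 and 6.74 in every rat, and the Ackr2 value of 1 MCAO rat lay among the Sham values.

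Of 13 other listed CC chemokine ligands, 9 were on the array, 7 of them near-constant, and 0 varying ones passed the filter, so no change could be tested. The 3 that passed it, Ccl17, Ccl19 and Ccl27, were near-constant. Ccl24, an eosinophil chemokine, had log2 signals of 6.45 to 6.87 in MCAO, against 6.36 to 6.50 in Sham, and Ccl9, encoded between Ccl5 and Ccl6, had 6.23 to 6.41 in MCAO, against 6.15 to 6.22 in Sham. Both lay around or under the limit of 6.61. Without a filter, 2 of these ligands were called higher by limma.

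Genes listed as inducers of CC chemokines or as regulators of their expression were mostly higher. The transcription list holds inhibitors as well as activators, so its count is not one of activators. Of 18 varying transcription genes 18 rose and 0 fell, where 35.2% of varying tested genes were called higher, with a median log2 change of 0.80, led by Cebpd (2.30 ± 0.18, SE), Stat3 (1.88 ± 0.16) and the AP-1 gene Fosl1 (1.56 ± 0.24). Of 11 varying inducers and their receptors 9 rose and 0 fell, with a median of 1.13. Cd14, a co-receptor for Toll-like receptor 4, rose by 3.13 ± 0.29, the TWEAK receptor gene Tnfrsf12a by 2.56 ± 0.36 and the cytokine gene Il6 by 1.49 ± 0.33. Of the genes named, Fosl1, Cd14 and Il6 lay under the limit on low values in all 5 Sham rats. They entered the test through MCAO arrays alone, so the counts are not read as support. With no filter 18 transcription genes were again called higher, and with the replicate number as a block 9. The probe set of Tnf, another inducer, was near-constant at 6.76. In MCAO 4 the mean score of the transcription list was 0.30, against 0.89 to 1.17 in the other 6 MCAO rats and -0.07 to 0.12 in Sham.

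Genes downstream of the receptors and at the cell surface were counted in the same way. Of 18 varying receptor signalling genes 11 rose and 3 fell, with a median of 0.43. Over all varying tested genes 35.2% were called higher and 34.2% lower. Rgs1, which ends G protein signals in leukocytes, rose by 1.24 ± 0.22, the leukocyte GTPase gene Rac2 by 0.997 ± 0.13 and the kinase gene Jak2 by 0.81 ± 0.15. The G protein subunit gene Gng2 fell by 0.22, a direction that turned when its probe sets were averaged (0.06). Of 8 varying genes for heparan sulfate anchors and chemokine trimming 7 rose and 0 fell (median 0.84), among them the syndecan genes Sdc1 (1.54 ± 0.38) and Sdc4 (1.07 ± 0.15) and the macrophage protease gene Mmp12 (1.09 ± 0.20). Rgs1 and Mmp12 lay under the limit on low values in all 5 Sham rats and entered the test through MCAO arrays alone. The genes named from these 4 lists as rising or falling passed at limma adjusted p of 0.00906 (Sdc1) or less.

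**Figure D5:**
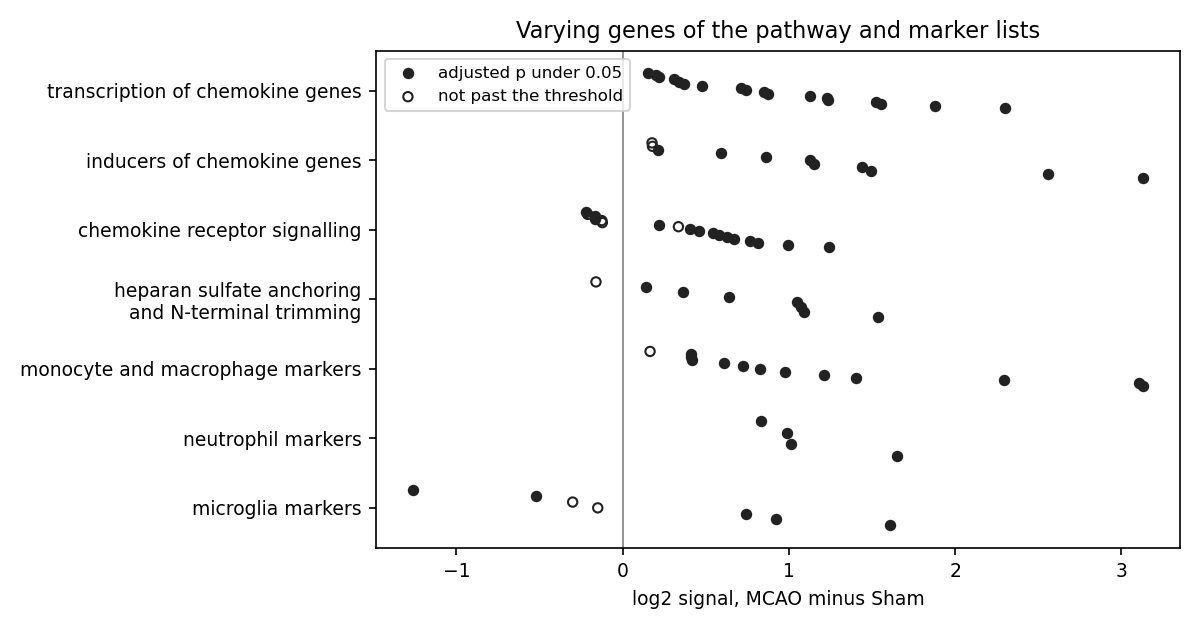
Log2 difference, MCAO minus Sham (horizontal axis), of each varying tested gene in 7 lists (vertical axis), filled where the limma adjusted p was under 0.05. Transcription genes and neutrophil markers all lie on the higher side, while microglia markers spread to both sides.

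Varying monocyte and neutrophil markers were mostly higher too, where 35.2% of varying tested genes were called higher and 34.2% lower. Of 13 varying monocyte and macrophage markers 12 rose and 0 fell (median 0.82), with mean scores of 0.84 to 1.65 in MCAO against -0.05 to 0.05 in Sham, and with Cd14, Lgals3 (3.11 ± 0.23) and Cd44 (2.29 ± 0.29) leading. Reactive glia can express these 3 genes as well, and Ccr2, a defining marker of the list, was near-constant at 6.23. Cd14 and another gene counted in this list lay under the limit on low values in all 5 Sham rats, so the monocyte count is not read as support. All 4 varying neutrophil markers rose (median 1.0): S100a9 by 1.65 ± 0.29, Mmp9 by 1.01 ± 0.23, S100a8 by 0.99 ± 0.20 and Il1r2 by 0.83 ± 0.16. They too lay under the limit on low values in all 5 Sham rats and entered the test through MCAO arrays alone, so their count is not read as support either. With no filter Csf3r varied as well, and 5 of 5 were called higher (limma adjusted p of 0.00879 or less). Of the 9 neutrophil markers on the array, 4 were near-constant: Cxcr2, Camp, Cebpe and the neutrophil collagenase gene Mmp8. Of 7 varying microglia markers 3 rose and 2 fell. Tyrobp (1.61 ± 0.17) and Itgam (0.92 ± 0.10), shared with blood myeloid cells, rose, and the resting microglia receptor gene P2ry12 fell by 1.26. These named markers passed at limma adjusted p of 0.00574 (Mmp9) or less. With the replicate number as a block Mmp9 did not pass (limma adjusted p = 0.0508). The 16 T and NK cell markers and the 4 B cell markers on the array were all near-constant. In the transcription, inducer, heparan sulfate, monocyte and neutrophil lists 0 varying genes fell by limma at an unadjusted p under 0.05 as well.

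Markers of resident cells are read against 35.2% of varying tested genes called higher and 34.2% called lower. Of 12 varying neuron markers 1 rose and 7 fell, and of 10 varying astrocyte markers 1 rose (Gfap, by 1.91) and 7 fell. Of 8 varying oligodendrocyte markers 0 rose and 3 fell (0 rose at an unadjusted p under 0.05 in limma), and of 7 endothelial and mural cell markers 3 rose and 1 fell. Of 8 choroid plexus and meningeal markers 2 rose and 1 fell, and of 3 blood markers 0 passed in either direction (0 at an unadjusted p under 0.05 in limma).

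Among the MCAO rats, 18 correlations of the 6 members with the monocyte, neutrophil and microglia scores were computed. The neutrophil score is a mean over only 4 genes. The neutrophil score was correlated with Ccl4 (r = 0.96, rho = 0.96, exact permutation p = 0.000397, adjusted p = 0.00714) and with Ccl3 (r = 0.94, rho = 0.82, exact permutation p = 0.00159, adjusted p = 0.0143). By ranks, 0 of the 18 pairs passed (exact permutation test for rho, adjusted p = 0.05 for Ccl4 and 0.154 for Ccl3). Without MCAO 3 and MCAO 6, r was 0.87 for Ccl4 and 0.77 for Ccl3. No pair with Ccl2, Ccl7, Ccl20 or Ccl6 passed, and Ccl2 had r = 0.70 with the neutrophil score (rho = 0.68, exact permutation p = 0.0667, adjusted p = 0.171). The monocyte and macrophage score had r = 0.85 with Ccl4 (rho = 0.86, exact permutation p = 0.00853, adjusted p = 0.0512) and 0.66 with Ccl2 (rho = 0.57, exact permutation p = 0.104, adjusted p = 0.187). The part of entering cells in the chemokine signals was not tested.

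With single rats left out, r with the neutrophil score was 0.91 to 0.98 for Ccl4 and 0.90 to 0.98 for Ccl3. With 6 rats the exact test is coarser, and without MCAO 1, MCAO 3 or MCAO 6, 0 of the 18 passed (2 to 3 at an unadjusted exact permutation p under 0.05). Without MCAO 2, whose microglia score of -0.26 was the lowest, 5 passed, and Ccl2 with the microglia score had r = -0.96 (adjusted p = 0.025, exact permutation test, 6 rats), against -0.46 with it. Without MCAO 4 and MCAO 7 instead, the r of Ccl2 with the microglia score was 0.85 over 5 rats, so its sign rested on few rats. For RNA integrity, the 3' minus 5' log2 signal of beta-actin controls was 1.27 to 1.47 in 6 MCAO arrays and 1.40 to 1.46 in 5 Sham arrays. It was lowest in MCAO 1, with the highest Ccl2, and highest in MCAO 4, with the lowest, and its part in the order of the rats was not tested. MCAO 6 was left out of that range because its control probe sets were displaced.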

How the data were processed

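The deposited table, made by the authors, holds log2 values for 31099 probe sets on 12 arrays. The log base was judged from the values (5.00 to 14.01). For background correction and normalization, the software is not given in the sources used here. Per the labels' protocols, RNA was extracted with TRIzol and cleaned with an RNeasy kit, and 100 ng went into biotin labelling. The values were used as deposited.

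Probe sets with several genes (436) or none (9780) in the platform annotation were left out, and symbols were updated through Entrez Gene IDs. Probe sets had to exceed 6.61, the table's 25th percentile, in at least 5 arrays, and the one with the highest mean stood for its gene. This left 12156 genes, 6339 of them varying (SD over the arrays of at least 0.01). MCAO was set against Sham with limma 3.58.1 (R 4.3.3; lmFit, then eBayes with trend), two-sided, adjusted by Benjamini-Hochberg over every tested gene at 0.05. The procedure was tested on simulated data.

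The members and the 18 gene lists were chosen with earlier results of these data known. A list score is the mean log2 difference of its varying genes, members left out, from their Sham mean. Correlations over the 7 MCAO rats used members with an SD of at least 0.1 there and an exact permutation test over 5040 pairings (numpy 2.4.6, Python 3.11.15). Named were all members, all tested genes of lists with up to 6, and otherwise the 3 passing genes with the largest change and the largest of the minority direction, plus the 5 genes most like Ccl2 and Ccl3. For resident cell, blood, B and T cell lists counts are given and, of the genes that rule names, Gfap. Outside that rule, Tnf, Ccl24, Ccl9, Ccr2, Ccr3, Ccr4, Ccr10, Ccrl2, Csf3r, Cxcr2, Camp and Cebpe were named after their values were seen. Each array is 1 animal.

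Alternatives were quantile normalization, equal array medians, no filter, a stricter filter (50th percentile), averaged probe sets, no near-constant probe sets, eBayes without trend or robust, array weights, the replicate number as a block, and leaving out each array.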

Additional observations from a re-analysis of the deposited data

Results flagged for a closer look

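In 52 groups of values examined for a rat far from the rest of its group, 3 stood apart by Dixon's criterion, and chance gives about 1 in 20. The transcription list score of MCAO 4, 0.30, lay below the next MCAO rat at 0.89. The microglia marker score of MCAO 2, -0.26, lay below the next MCAO rat at 0.11. The Ccr1 log2 signal of Sham 5, 6.34, lay above the next Sham rat at 6.19, and the lowest MCAO rat had 6.63.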

How the results depend on the processing

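Replicate numbers 1 to 5 occur in both groups, and whether they pair the rats is not settled. Deviations of same-numbered rats correlated at -0.33 to 0.57, and 5 of 10 rats correlated best with their own number. With the number as a block, 1432 varying genes were called higher and 1347 lower, against 2229 and 2165 without it. Under that block Ackr2 (-0.51, adjusted p = 0.0651), Ackr3 (0.36, adjusted p = 0.0782) and Mmp9 (0.96, adjusted p = 0.0508) did not pass, and 9 of 18 transcription genes passed. In the pathway lists other than receptors and ligands, 4 genes were called lower, but 1 with the block and 2 with averaged probe sets, where Gng2 turned to 0.060. The receptor count of 1 became 0 with the filter at the 50th percentile, which Ccr1 does not pass, and the count of other ligands became 2 with no filter. Ackr1 passed with array weights (adjusted p = 0.0434) and without near-constant probe sets (adjusted p = 0.0401). The near-constant Ccl5 had a log2 difference of 0.0002, against -0.0033 after quantile normalization and -0.0131 with equal array medians. For the other 6 members no alternative moved the difference by 1 SD among MCAO rats. With single arrays left out it was 4.74 to 5.31 for Ccl2, 2.12 to 2.61 for Ccl20 and 1.37 to 1.57 for Ccl3. Leaving out single rats gave 1 to 4 passing pairs of members and 0 to 5 passing score correlations. Except where the construction of an alternative shows it, the cause of these shifts was not tested. Correlations over 7 rats, or 6 with one left out, have little precision.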
